A study of Homo sapiens with 18 samples.

Results

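The MRPL and MRPS genes encode most proteins of the mitochondrial ribosome, MRPL for the large subunit and MRPS for the small subunit. They were chosen by name: transcripts of the readthrough table were matched to GENCODE release 44, and every symbol made of MRPL or MRPS and a number was taken. This gave 75 genes, 46 MRPL and 29 MRPS, of 13051 transcripts in the table, 12704 of which were matched. MRPL19, MRPL23 and MRPL43 also carry such a symbol in the annotation and are not analysed here. The mitochondrial ribosome translates the few proteins that mitochondrial DNA encodes, which are subunits of the respiratory chain complexes and of ATP synthase. Its own proteins are all encoded in the nucleus, translated in the cytosol and imported. The large subunit forms the peptide bonds and the small subunit decodes the mRNA, and many of the proteins have no counterpart in bacterial ribosomes.

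The study asked how treatments of K562 cells alter RNA processing, among it transcription past the end of the gene. K562 is an established line of chronic myeloid leukaemia cells that carry the Bcr-Abl1 fusion kinase. Chromatin-bound nascent RNA, depleted of polyadenylated RNA and of rRNA, was sequenced as long reads on the PacBio platform in 18 libraries, 3 labelled biological replicates for each of 6 conditions. A readthrough read overlapped the last exon of a gene's representative transcript and had its 3′ end more than 100 nt past the polyadenylation site. CTRL and CTRLim were untreated. The KCl 45min cells were under hyperosmotic stress from 110 mM KCl for 45 min. The JTE 1h cells received 5 µM JTE-607, an inhibitor of CPSF73, the endonuclease that cleaves the pre-mRNA at the polyadenylation site, for 1 h. The IM 1h and IM 18h cells received 1 µM imatinib, an inhibitor of Bcr-Abl1, for 1 h and 18 h. Of the erythroid marker genes, HBG1 had 4159 readthrough reads, HBE1 2768 and TAL1 408, each in all 18 libraries. Of the HBG1 reads 344 were in CTRLim, 668 in IM 1h and 2419 in IM 18h, a mean of 301.7, 327.9 and 681.1 reads per 1000000 library reads, and the means of TAL1 were 29.4, 24.5 and 56.8. KLF1 had 115 in 16 libraries, and TFRC (58) and GATA1 (38) were read in 14, while HBG2 was not analysed here. In the same order of groups the means were 259.0, 319.7 and 445.4 for HBE1 and 9.53, 12.7 and 13.2 for KLF1. Those of GATA1 were 4.04, 6.30 and 2.57 and those of TFRC 2.59, 9.03 and 2.47, neither higher in IM 18h than in CTRLim. Among marker genes for other cells, KRT18 had 91 reads in 18 libraries, CD3D 13, EPCAM 4 and LYZ 1.

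The libraries held 229855 to 1349556 reads after the authors' filters, 2.15% to 5.40% of them readthrough reads. The members held 83 to 795 readthrough reads per library, 5601 in all. Their values are given as readthrough reads per 1000000 library reads, abbreviated RPM. A count of 0 allowed up to 13.1 RPM in the shallowest library, CTRLim replicate 1, and less in the others, the value of 3 reads at that depth. Such limits and all intervals given cover counting error only. A change in RPM mixes a change in transcription with a change in 3′ end cleavage, and in these bulk samples fewer cells with a transcript and less of it per cell cannot be told apart. The CTRL, KCl 45min and JTE 1h libraries had 40.5% to 44.1% of their raw reads mapped and the CTRLim, IM 1h and IM 18h libraries 84.3% to 91.6%, so treatments were compared within these sets of 9 libraries. Several libraries stood apart from their group. JTE 1h replicate 1 had 3.06% of its library reads past the polyadenylation site, against 5.40% and 5.05% in replicates 2 and 3, and lay below the 3.32% to 3.55% of CTRL. In KCl 45min replicate 1 the members took 1.40% of the readthrough reads (95% exact interval 1.18 to 1.65), against 0.986% (0.786 to 1.22) and 1.01% (0.888 to 1.15) in replicates 2 and 3, where the intervals of replicates 1 and 2 overlapped. In IM 18h replicate 1 the share was 0.906% (0.809 to 1.01), against 1.12% (1.03 to 1.22) and 1.15% (1.06 to 1.25). CTRLim replicate 1 had 4.44% readthrough reads, against 3.79% and 3.85%.

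Most members were among the better covered transcripts of the table. They had a median of 37.0 reads over all libraries, against 10.0 for all transcripts, and 44 of the 75 (58.7%) reached 30 reads, against 26.7% of the table. Their 5601 reads made up 1.25% of the 447434 readthrough reads. The 46 MRPL genes held 3489 reads with a median of 30.5, and the 29 MRPS genes held 2112 with a median of 48.0. The 45 members with a bacterial counterpart had a median of 53.0 reads and the 30 without one a median of 25. At the low end, 13 members had fewer than 10 reads, and 11 members were read in every library.

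The reads were concentrated on a few members. MRPL14, a protein of the large subunit's face towards the small subunit, led with 618 reads. MRPS18A followed with 358, and its protein sits in the large subunit in spite of its symbol. Next came MRPL33 with 348, MRPS7 of the head of the small subunit with 300, MRPL17 with 268 and MRPL36 with 230. These 6 genes held 37.9% of the members' reads, and the 12 leading genes 56.6%. Further down that order were MRPL46 (208), MRPS16 (201), MRPS25 (190), MRPS15 (152), MRPL50 (148) and MRPL35 (147). A long read counts 1 RNA molecule, so these totals were not divided by length. The members were short genes, with a median length of 8553 nt against 22590 for the table and a last exon of 664.0 nt against 1361. Across the 75 genes the totals bore little relation to last exon length (Spearman's rho 0.151) or gene length (0.0152), as a description across genes that are not independent replicates.

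**Figure D1:**
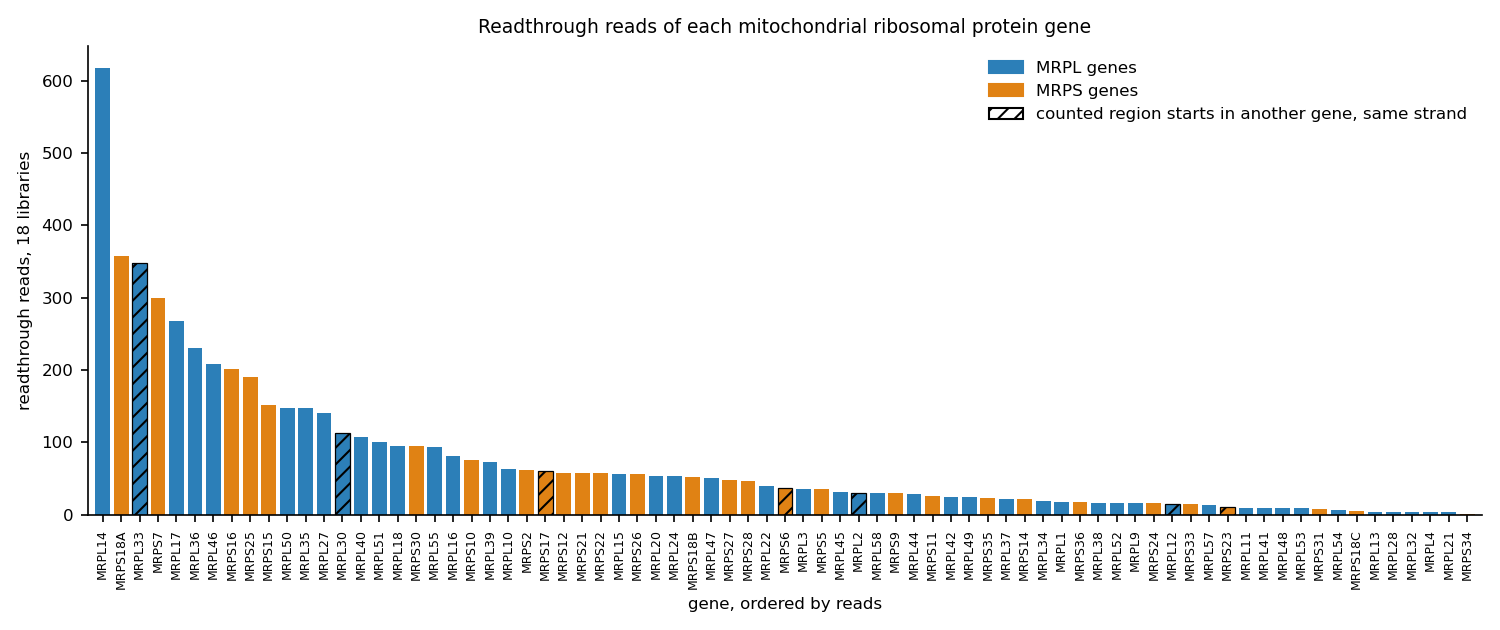
Readthrough reads over all 18 libraries (vertical axis, number of reads) for the 75 members, 1 bar per gene in order of reads, with MRPL genes in blue, MRPS genes in orange and hatching where the counted stretch begins inside another gene of the same strand. MRPL14 leads with 618 reads and the 12 leading genes hold 56.6% of the members' reads.

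Neighbouring genes limit what some of these counts stand for. For 7 members the stretch where readthrough was counted began inside another gene of the same strand, among them MRPL33, whose counted transcript ends inside BABAM2. That transcript is annotated as a target of nonsense-mediated decay, spans 216349 nt and has a last exon of 95 nt. The 7 members held 614 reads, 11% of the members' total, and reads of the host gene cannot be told apart from readthrough of the member. For 23 members, 30.7% against 24.9% of the table, the stretch began inside a gene of the opposite strand. They include MRPS18A (RSPH9), MRPS7 (MIF4GD), MRPS16 (DNAJC9-AS1), MRPS25 (NR2C2), MRPL40 (HIRA and C22orf39), MRPS22 (COPB2) and MRPS2 (an unnamed gene). Whether reads were counted by strand is not stated in the study's methods, so for these members reads of the antisense gene cannot be told apart either. Without the 7 same-strand members the summed RPM was 473.2 ± 44.9 (SD, n = 3) in CTRL, 236.4 ± 61.3 in KCl 45min, 622.7 ± 166.4 in JTE 1h, 405.6 ± 27.0 in CTRLim, 508.9 ± 45.3 in IM 1h and 341.1 ± 46.3 in IM 18h. The order of the groups was that of all 75 members.

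The last 30 bases before the annotated end of the counted transcript were searched for the polyadenylation signal, the hexamer that the cleavage machinery reads. They are given for the 10 members called in any comparison and for MRPL14 and MRPL33, read from GRCh38 on the gene's strand, with AATAAA or ATTAAA in capitals.
MRPL14, ENST00000372014, chr6:44113451-44113480, minus strand: tttataaatgtaccatggctctaaccaaaa
MRPL33, ENST00000448427, chr2:27988058-27988087, plus strand: gaattcctgccagacccctcagctttgcag
MRPL17, ENST00000288937, chr11:6680385-6680414, minus strand: gacactgcttcccctttaatgttttggtcc
MRPL36, ENST00000505818, chr5:1798386-1798415, minus strand: cattttcctATTAAAatagaccttccgaat
MRPL46, ENST00000312475, chr15:88459478-88459507, minus strand: aattctgagaAATAAAcgagtctattactg
MRPL40, ENST00000333130, chr22:19436046-19436075, plus strand: tgctgttAATAAAtactggtttaatcaaaa
MRPL55, ENST00000366741, chr1:228106679-228106708, minus strand: aatcactcgttcttgaagctgccacctgga
MRPL10, ENST00000351111, chr17:47823272-47823301, minus strand: ATTAAAggcagctgacagctgtacccacta
MRPS18A, ENST00000372133, chr6:43671202-43671231, minus strand: gtgtgaatccaagaaactgcgttcctcaaa
MRPS7, ENST00000245539, chr17:75266347-75266376, plus strand: aaaatgtataaaaagcagtttctggtgtga
MRPS2, ENST00000371785, chr9:135504644-135504673, plus strand: aAATAAAactcagatttgggcaaaatgaga
MRPS22, ENST00000498505, chr3:139357194-139357223, plus strand: tgaatttctcaaatcatgttagatgagcgt
Of these 12 windows, 7 held neither hexamer, and the 5 members with the most reads were all among the 7. MRPL36, the 6th in reads, had ATTAAA, and 6 of the 12 members with the most reads had neither hexamer. In the last 60 bases of those 5 neither hexamer was found. Among all 75 members, 43 (57.3%) had AATAAA in the last 30 bases, 7 (9.33%) had only ATTAAA and 25 (33.3%) had neither, against 52.1%, 12.9% and 35% of the table. The median was 30 reads for members with AATAAA, 48.0 with ATTAAA and 56.0 with neither, where the table's medians were 10, 11 and 10. Among the transcripts shown, those of MRPL33 and MRPS22 are annotated as targets of nonsense-mediated decay. Whether the annotated ends are cleavage sites used in these cells was not tested. The absence of these letters in the window says nothing about other signals, and its relation to the read counts was not tested.

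Summed over the 75 members, readthrough was lowest after KCl and highest after JTE-607. The 3 CTRL libraries had 468.5, 548.2 and 541.4 RPM (519.4 ± 44.2). The KCl 45min libraries had 343.4, 264.5 and 217.9 (275.2 ± 63.4) and the JTE 1h libraries 502.7, 847.9 and 692.8 (681.1 ± 172.9). All KCl 45min libraries lay below all CTRL libraries, while JTE 1h replicate 1 lay within the CTRL values. In the imatinib set, CTRLim had 465.5, 468.5 and 432.7 RPM (455.5 ± 19.9), IM 1h 514.1, 568.7 and 601.7 (561.5 ± 44.2) and IM 18h 333.0, 419.6 and 425.3 (392.6 ± 51.7). The 3 groups did not overlap, with IM 1h above CTRLim and IM 18h below it. The gap below CTRLim was narrow, with 425.3 in the highest IM 18h library and 432.7 in the lowest of CTRLim.

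Measured against all readthrough reads of the same library, several of these differences shrank. The members took 1.53 ± 0.124% of the readthrough reads in CTRL, 1.13 ± 0.230% in KCl 45min and 1.53 ± 0.140% in JTE 1h. In the imatinib set their share was 1.14 ± 0.0936% in CTRLim, 1.28 ± 0.0988% in IM 1h and 1.06 ± 0.134% in IM 18h. On this scale JTE 1h overlapped CTRL, and both imatinib groups overlapped CTRLim. KCl 45min stayed below CTRL by a narrow gap, with 1.40% in its highest library and 1.41% in the lowest of CTRL, and IM 18h stayed below IM 1h, with 1.15% against 1.18%. The untreated groups themselves differed in share, 1.53% in CTRL and 1.14% in CTRLim, where the library set and the cells used cannot be told apart.

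**Figure D2:**
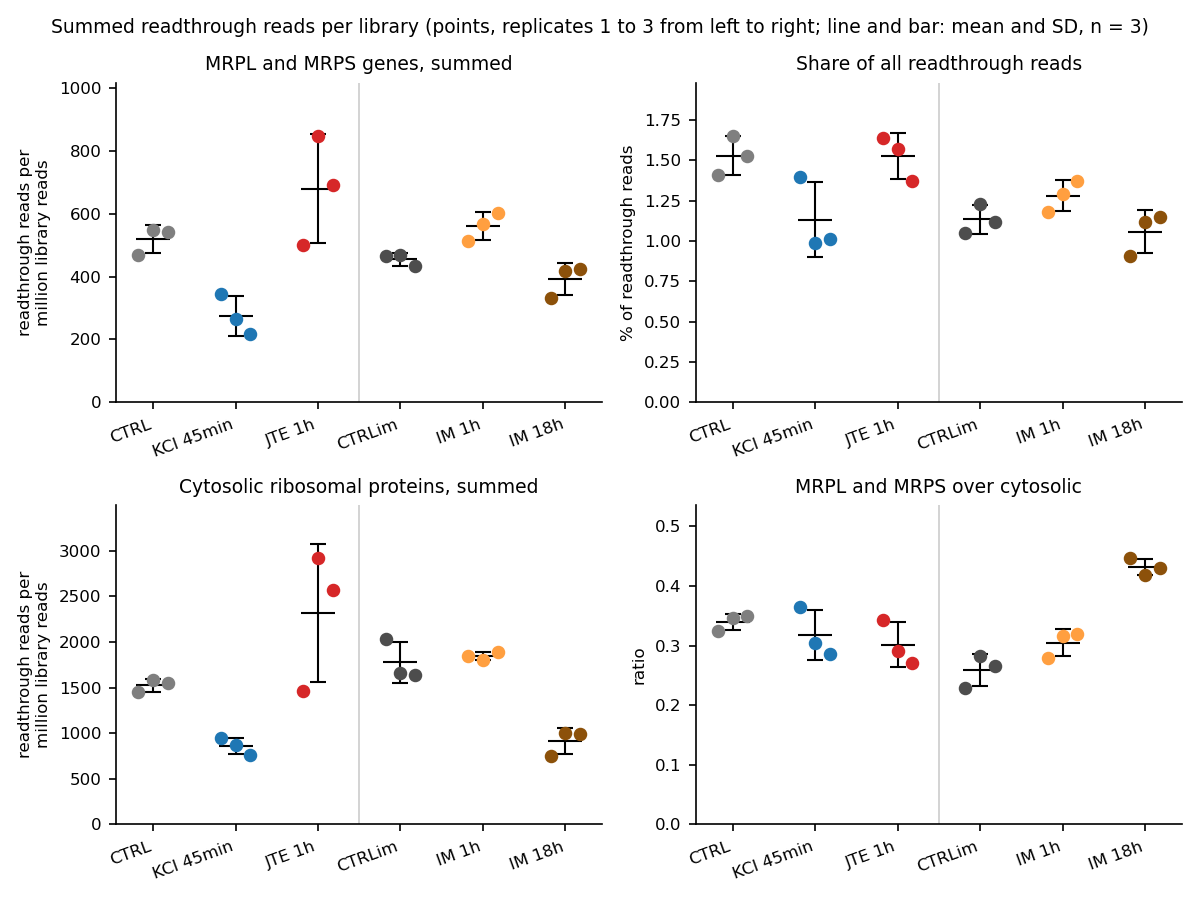
By condition and library, the summed readthrough of the 75 members in reads per 1000000 library reads (top left) and in percent of all readthrough reads (top right), that of the 77 cytosolic ribosomal protein genes (bottom left) and the ratio of members to these (bottom right), with replicates 1 to 3 as points from left to right and the mean ± SD of 3 libraries as lines. The members' mean is lowest in KCl 45min at 275.2 RPM and highest in JTE 1h at 681.1, and their ratio to cytosolic genes is highest in IM 18h at 0.432.

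The 2 sets of symbols were summed apart. The MRPL genes summed to 322.8 ± 57.2 RPM in CTRL, 179.3 ± 45.3 in KCl 45min and 447.0 ± 110.7 in JTE 1h. The MRPS genes summed to 196.5 ± 36.5, 95.9 ± 18.4 and 234.2 ± 66.3 in the same order. For each set the KCl 45min libraries lay below all CTRL libraries and the JTE 1h libraries overlapped them. In CTRLim, IM 1h and IM 18h the MRPL genes had 284.5 ± 7.29, 322.9 ± 28.7 and 249.1 ± 30.6 RPM, and the MRPS genes 171.0 ± 14.8, 238.6 ± 21.1 and 143.6 ± 27.6. Against CTRLim only the MRPS genes in IM 1h were without overlap, while the MRPL genes overlapped at both time points and the MRPS genes in IM 18h. Between IM 18h and IM 1h neither set overlapped. The ratio of MRPL to MRPS reads, where MRPS18A and MRPS30 count by symbol, was 1.67 ± 0.128 in CTRLim, 1.36 ± 0.114 in IM 1h and 1.76 ± 0.252 in IM 18h. IM 1h was the only group of this set whose highest ratio, 1.49, lay below every CTRLim library, although it overlapped the lowest IM 18h library, at 1.47. In CTRL the ratio was 1.35, 1.37 and 2.41, so 2 untreated libraries of the other set lay within the IM 1h range.

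Single members were then compared with edgeR's quasi-likelihood test, fitted on the 6 libraries of each comparison for all genes with at least 30 readthrough reads over them. Genes were called at a Benjamini-Hochberg adjusted p under 0.05 over all genes tested, and log2 fold changes give the first group over the second. A member had to pass the limit of 30 reads in the libraries compared, so members high in either group entered more easily, and those tested do not stand for all 75. Ranges of adjusted p over alternatives include DESeq2 fits beside edgeR fits.

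KCl against CTRL asked what hyperosmotic stress does to transcription past the gene end. The 75 members summed to a lower RPM in all KCl 45min libraries, a log2 ratio of group means of -0.92. Of the members only 5 had enough readthrough reads for the test, and MRPS7 alone was called, lower after KCl. Over all genes 95 of 378 (25.1%) were called. Without replicate 1 of both groups the summed log2 ratio was -1.18.

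MRPS7 binds the rRNA of the small subunit's head, as its bacterial counterpart does. It had 33.3, 31.7 and 30.9 RPM in CTRL and 17.0, 9.56 and 6.63 in KCl 45min. All 3 CTRL libraries were alike, and all 3 KCl 45min libraries lay far below them. The log2 fold change was -1.62 ± 0.570 (SE), with an edgeR adjusted p of 0.0271. MRPS18A had 41.6, 53.6 and 27.1 RPM in CTRL and 21.9, 22.3 and 11.4 in KCl 45min, again without overlap, but was not called (-1.26 ± 0.524, edgeR adjusted p 0.0737). MRPL18, a protein of the large subunit's central protuberance, went the other way, with 2.77, 7.31 and 3.87 RPM in CTRL and 14.6, 22.3 and 13.3 in KCl 45min. It was not called either (1.66 ± 0.762, edgeR adjusted p 0.113). MRPL14 and MRPL33 overlapped between the groups. So 2 of 5 members were lower without overlap and 1 was higher, against 28.0% and 7.67% of all genes tested.

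Of the members outside the test, MRPL17 had 11.1, 24.4 and 34.8 RPM in CTRL and 2.44, 3.19 and 3.79 in KCl 45min. MRPS15 had 13.9, 24.4 and 11.6 in CTRL and 2.44, 0 and 1.89 in KCl 45min. Neither reached 30 reads over the 6 libraries, although their groups lay well apart. Most of their reads were in CTRL, 23 against 6 for MRPL17 and 18 against 3 for MRPS15. Not all members outside the test were lower. MRPS6, named after its values were seen, had 0, 0 and 3.87 RPM in CTRL and 4.87, 9.56 and 5.68 in KCl 45min. MRPL45, named likewise, had 0, 7.31 and 0 in CTRL and 9.74, 12.7 and 4.74 in KCl 45min, with overlap. With a limit of 10 reads in place of 30, MRPL17 had an edgeR adjusted p of 0.00644 (range over its alternatives in this comparison 5.32e-04 to 0.0291) and MRPS15 of 0.00649 (0.00142 to 0.0303), and 6 of 30 members tested were called, all lower, beside 256 of 1885 genes, 223 of them lower.

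These calls rest on few reads and on the scaling. The median log2 fold change was -0.78 over the 5 members and -0.39 over all genes tested, and -0.39 and 0.06 with TMM scaling, which assumes that most genes do not change. Under TMM the calls over all genes went from 16 higher and 79 lower to 25 and 50, MRPS7 was not called, and MRPL18 was called higher (edgeR adjusted p 0.0375, range over alternatives 0.0320 to 0.448). The adjusted p of MRPS7 ranged from 0.0126 to 0.280 over the alternatives, and its call was lost without KCl 45min replicate 3 and without any single CTRL library. DESeq2 called 0 members, and 3 of the 5 had an unadjusted p under 0.05 in edgeR.

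JTE-607 against CTRL asked what inhibiting the cleavage enzyme does within 1 h. Readthrough of the whole library reached 5.40% and 5.05% of library reads in JTE 1h replicates 2 and 3, against at most 3.55% in CTRL. In JTE 1h replicate 1 it was 3.06%, below the lowest CTRL library at 3.32%. The members' summed RPM was higher by a log2 ratio of 0.39, with the libraries overlapping. No member of the 21 tested was called by edgeR, where 2 had an unadjusted p under 0.05, and DESeq2 also called 0. Over all genes 1 of 969 (0.103%) was called. In the higher direction 4 members did not overlap CTRL, against 12% of all genes tested, and in the lower direction 0 did, against 1.86%.

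MRPL46, a large subunit protein without a bacterial counterpart, had the smallest p among the members. Its RPM was 5.54, 9.75 and 15.5 in CTRL and 19.6, 73.9 and 42.7 in JTE 1h. All JTE 1h libraries lay above all CTRL libraries, with a wide spread among them. The log2 fold change was 2.17 ± 0.661 and the edgeR adjusted p 0.226, so it was not called. Without JTE 1h replicate 1 it was called (edgeR adjusted p 0.0155, range over alternatives 0.0155 to 0.893), and 69 of 840 genes were then called in all. MRPL27, which lies close to the peptidyl transferase centre, had 5.54, 14.6 and 7.73 RPM in CTRL and 19.6, 40.8 and 20.9 in JTE 1h (1.47 ± 0.661, edgeR adjusted p 0.428). MRPL14, the member with the most reads, had 63.8, 65.8 and 112.1 RPM in CTRL and 60.9, 103.1 and 71.5 in JTE 1h, with a log2 fold change of -0.02. The median over the 21 members was 0.35, against 0.49 over all genes, and -0.10 against 0.04 with TMM scaling, so the sign of the members' median depends on the scaling.

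JTE-607 against KCl compared these treatments directly, without the control they share. The members' summed log2 ratio was 1.31, and the lowest JTE 1h library, at 502.7 RPM, lay above the highest KCl 45min library, at 343.4. Of the 17 members tested 8 were called, all higher in JTE 1h, 6 of them MRPL and 2 MRPS genes. Over all genes 353 of 999 (35.3%) were called. Without overlap 10 members were higher and 0 lower, against 37.7% and 2.80% of all genes tested. Without replicate 1 of both groups the summed log2 ratio was 1.68 and 10 of 14 members were called, beside 451 of 808 genes.

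In the large subunit, MRPL10 forms the base of the stalk that binds translation factors. It had no read in any KCl 45min library and 13.1, 13.6 and 21.8 RPM in JTE 1h. That was at least 10.6-fold higher, counted against 3 reads over the KCl 45min group, with an edgeR adjusted p of 7.12e-05 (range over alternatives 1.35e-06 to 0.0143). That range leaves out 2 alternatives in which it was not called, DESeq2 with its own size factors, which gave no adjusted p, and the fit without JTE 1h replicate 3, where it had fewer than 30 reads. MRPL55 had 2.44, 0 and 0.947 RPM in KCl 45min, 2 reads in all, and 23.9, 17.5 and 14.8 in JTE 1h. The pooled ratio was 15.5, with a 95% exact counting interval of 4.0 to 133.0, and the edgeR adjusted p was 7.06e-04. MRPL17 had 2.44, 3.19 and 3.79 RPM in KCl 45min and 13.1, 33.1 and 21.8 in JTE 1h (log2 fold change 2.71 ± 0.758, edgeR adjusted p 0.00216). MRPL40, without a bacterial counterpart, had 0, 0 and 4.74 RPM in KCl 45min and 6.53, 31.1 and 20.9 in JTE 1h (2.87 ± 0.807, edgeR adjusted p 0.00224). In each of these 4 genes every JTE 1h library lay above every KCl 45min library.

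MRPL46 had 9.74, 19.1 and 4.74 RPM in KCl 45min and 19.6, 73.9 and 42.7 in JTE 1h (2.18 ± 0.681, edgeR adjusted p 0.00655). MRPL36, the counterpart of the small bacterial protein L36, had 7.31, 9.56 and 3.79 RPM in KCl 45min and 23.9, 21.4 and 31.4 in JTE 1h (2.05 ± 0.720, edgeR adjusted p 0.0168). The gap between the groups was narrow for MRPL46, where the lowest JTE 1h library stood at 19.6 and the highest KCl 45min library at 19.1, and wide for MRPL36. MRPS18A had 21.9, 22.3 and 11.4 RPM in KCl 45min and 43.5, 56.4 and 59.3 in JTE 1h (1.59 ± 0.619, edgeR adjusted p 0.0326). In the small subunit, MRPS2 had 2.44, 0 and 0.947 RPM in KCl 45min, again 2 reads, and 19.6, 9.72 and 15.7 in JTE 1h. The pooled ratio was 13.4, with a 95% exact counting interval of 3.43 to 115.6, and the edgeR adjusted p was 0.00328. Both genes were without overlap. MRPS7, called lower in KCl 45min against CTRL, was not called here, with 17.0, 9.56 and 6.63 RPM in KCl 45min and 10.9, 31.1 and 15.7 in JTE 1h.

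The median of all genes tested was shifted in the same direction, with 864 of 999 above 0 and 135 below. The median log2 fold change was 1.59 over the 17 members, also with MRPL10 at its bound, and 1.21 over all genes tested. TMM scaling brought the medians to 0.52 and 0.18 and the calls over all genes from 341 higher and 12 lower to 114 and 50. Under TMM and under scaling to total readthrough reads 2 members were called, MRPL10 and MRPL55. DESeq2 called 7 on library reads (all genes 220 of 999) and 0 with its own size factors (74 of 999). The count of called members was 3 of 14 tested without JTE 1h replicate 2, beside 176 of 740 genes. It was 1 of 8 without JTE 1h replicate 3 (all genes 83 of 435) and 4 of 16 without KCl 45min replicate 3 (182 of 818).

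**Figure D3:**
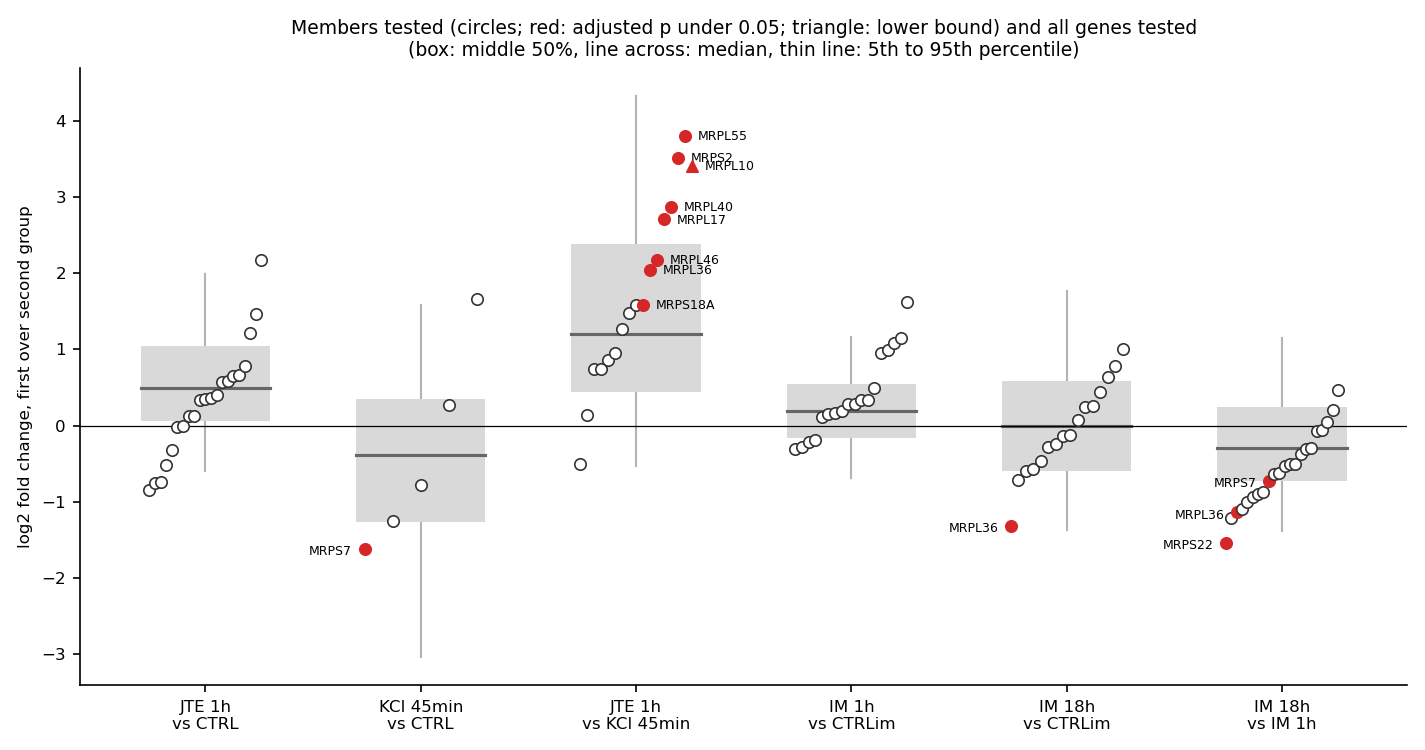
Log2 fold change (vertical axis, first group over second) of each member tested in the 6 comparisons, as circles, with called members in red and labelled and MRPL10 in JTE 1h against KCl 45min as a triangle at its lower bound. Grey boxes give the middle 50%, the median and the 5th to 95th percentile of all genes tested; 8 of 17 members are red in JTE 1h against KCl 45min and at most 3 in any other comparison.

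Imatinib for 1 h against CTRLim asked for the early response to blocking Bcr-Abl1. The summed RPM of the members was higher in every IM 1h library than in any CTRLim library, by a log2 ratio of 0.30. The median over all 75 members of their own log2 ratios, with 0.5 reads added to each count, was -0.05. The added 0.5 reads weigh more in the shallower CTRLim libraries, for members with few reads above all, and with a limit of 1 read the median of the values fitted by edgeR was 0.33 over 71 members. No member of the 18 tested was called by edgeR, where 3 had an unadjusted p under 0.05, and DESeq2 called 0, with 0 under 0.05 unadjusted. Over all genes 15 of 988 (1.52%) were called. Without overlap 5 members were higher and 1, MRPL17, was lower, against 13.0% and 5.47% of all genes tested.

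MRPL50, of the large subunit and without a bacterial counterpart, had 13.1, 7.41 and 14.2 RPM in CTRLim and 17.8, 26.2 and 29.9 in IM 1h. Every IM 1h library lay above every CTRLim library, but the gene was not called (1.15 ± 0.427, edgeR adjusted p 0.208). In the other untreated group, CTRL, it had 5.54, 0 and 0 RPM. MRPL27 had 4.35, 3.70 and 4.06 RPM in CTRLim and 17.8, 8.72 and 11.2 in IM 1h (1.62 ± 0.637, edgeR adjusted p 0.212). Both genes encode large subunit proteins. MRPS25, a small subunit protein without a bacterial counterpart, had 13.1, 11.1 and 16.3 RPM in CTRLim and 19.3, 22.7 and 34.9 in IM 1h (0.95 ± 0.402, edgeR adjusted p 0.259). MRPS30, also of the large subunit in spite of its symbol, had 8.70, 5.55 and 6.09 in CTRLim and 13.4, 17.4 and 11.2 in IM 1h, also not called (1.08 ± 0.562, edgeR adjusted p 0.378). None of these genes overlapped between the groups. MRPS7 was without overlap too, at 30.5, 31.5 and 26.4 RPM in CTRLim and 37.1, 41.9 and 44.8 in IM 1h (edgeR adjusted p 0.441). The median of the fitted values over the 18 members tested was 0.29 against 0.19 over all genes, and 0.11 against 0.00 with TMM scaling.

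After 18 h of imatinib, the summed RPM lay below CTRLim in every library, by a log2 ratio of -0.21. The gap was narrow, with 425.3 RPM in the highest IM 18h library and 432.7 in the lowest of CTRLim. The lowest IM 18h library was replicate 1, at 333.0 RPM, and without it the ratio was -0.11. Without CTRLim replicate 1 it was -0.20. MRPL36 was the only member called in both cases, beside 189 of 1064 genes in the first and 170 of 1320 in the second. The median over all 75 members of their own log2 ratios, with 0.5 reads added to each count, was -0.67, where the added reads again weigh more in CTRLim. The median of the values fitted by edgeR was -0.09 over 72 members with a limit of 1 read and -0.14 over 41 with a limit of 10. Of the 16 members tested MRPL36 was called, lower in IM 18h, where over all genes 196 of 1386 (14.1%) were called. The part of the higher readthrough of the marker genes HBG1, HBE1 and TAL1 after 18 h in the members' values was not tested. Without overlap 2 members were higher and 3 lower, against 13.3% and 18.4% of all genes tested. The median of the fitted values over the 16 members tested was -0.13 against -0.01 over all genes, and -0.02 against 0.10 with TMM scaling. Without CTRLim replicate 1 these medians were 0.13 and 0.06, so the sign of the members' median depended on that library.

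MRPL36 had 26.1, 29.6 and 38.6 RPM in CTRLim and 10.6, 13.3 and 14.1 in IM 18h. Its IM 18h libraries lay close together and far below all CTRLim libraries. The log2 fold change was -1.32 ± 0.365, with an edgeR adjusted p of 0.00940. DESeq2 called it as well, and so did edgeR under each other scaling and each limit on reads. Without CTRLim replicate 3 the edgeR adjusted p was 0.0910, and over all alternatives it ranged from 0.00356 to 0.583, the highest with CTRL as the control. In CTRL the gene had 19.4, 17.1 and 11.6 RPM, overlapping IM 18h, so the call was made only against the untreated libraries of its own set. MRPL17 and MRPL46 were lower without overlap and MRPL50 and MRPL27 higher, none of them called.

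The direct comparison of 18 h with 1 h of imatinib had the most reads. The summed RPM was lower in every IM 18h library than in any IM 1h library, by a log2 ratio of -0.52. Of the 22 members tested 3 were called, MRPL36, MRPS7 and MRPS22, all lower in IM 18h, where over all genes 315 of 1720 (18.3%) were called. Without overlap 10 members were lower and 0 higher, against 26.3% and 8.49% of all genes tested.

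In the large subunit MRPL36 had 32.7, 27.9 and 24.9 RPM in IM 1h and 10.6, 13.3 and 14.1 in IM 18h (-1.14 ± 0.331, edgeR adjusted p 0.00822). The groups were far apart, and IM 1h lay within 1 SD of CTRLim. In the small subunit MRPS7 had 37.1, 41.9 and 44.8 RPM in IM 1h and 21.3, 29.7 and 23.0 in IM 18h (-0.73 ± 0.258, edgeR adjusted p 0.0335). Here IM 1h lay above CTRLim and IM 18h overlapped it. MRPS22, a small subunit protein without a bacterial counterpart, had 7.43, 10.5 and 9.97 RPM in IM 1h and 6.38, 2.35 and 1.48 in IM 18h, on 30 reads in all (-1.54 ± 0.542, edgeR adjusted p 0.0335). In CTRLim it spread from 4.06 to 13.0 RPM, overlapping both time points. The other 7 members lower without overlap were MRPL40, MRPS30, MRPL46, MRPS18A, MRPL55, MRPS16 and, named after its values were seen, MRPL16, with edgeR adjusted p from 0.0673 to 0.251.

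These 3 calls depended on the scaling as well. The median log2 fold change was -0.58 over the 22 members and -0.30 over all genes, and -0.28 and -0.01 with TMM scaling. Calls over all genes went from 72 higher and 243 lower to 111 and 92 under TMM. No member was called under TMM, where 3 had an unadjusted p under 0.05, nor under scaling to total readthrough reads or by DESeq2. The adjusted p ranged from 0.00780 to 0.332 over the alternatives for MRPL36, from 0.0197 to 0.622 for MRPS7 and from 0.0382 to 0.183 for MRPS22. Leaving out IM 1h replicate 1 left 0 members called, beside 215 of 1500 genes. Leaving out IM 1h replicate 2 or 3 left MRPL36 alone, beside 183 of 1521 and 174 of 1450 genes. Without any 1 library MRPS22 had fewer than 30 reads and was not tested.

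Of the 6 members with the most reads, MRPL36 was called in 3 comparisons, MRPS7 in 2, MRPS18A and MRPL17 in 1 each, and MRPL14 and MRPL33 in none. MRPL14 had 43.5, 37.0 and 34.5 RPM in CTRLim, 43.1, 52.3 and 46.1 in IM 1h and 45.7, 38.4 and 50.4 in IM 18h. In KCl 45min it had 75.5, 38.2 and 28.4, overlapping CTRL. MRPL33 had 22.2, 29.2 and 11.6 RPM in CTRL, 36.5, 9.56 and 29.4 in KCl 45min and 37.0, 27.2 and 22.7 in JTE 1h. In CTRLim it had 17.4, 48.1 and 30.5, in IM 1h 31.2, 34.9 and 26.2 and in IM 18h 33.0, 36.0 and 25.9. Its groups overlapped in all 6 comparisons, and reads of BABAM2 cannot be told apart from its own.

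**Figure D4:**
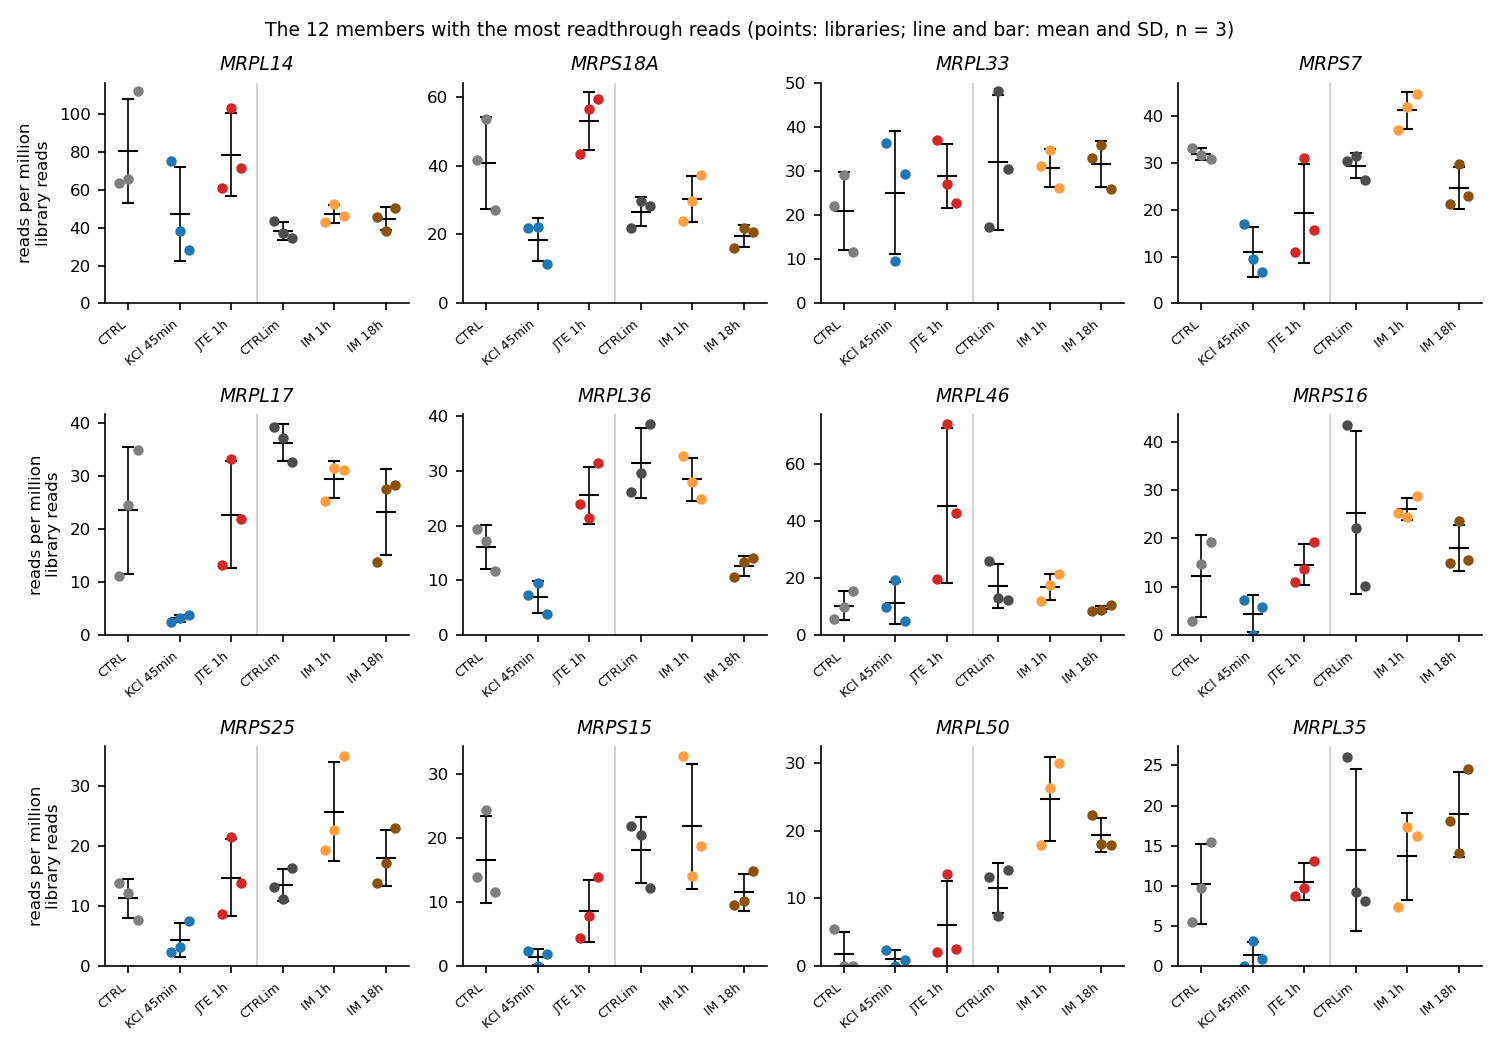
Readthrough reads per 1000000 library reads of the 12 members with the most reads, 1 panel per gene, in the 6 conditions, with replicates 1 to 3 as points from left to right and the mean ± SD of 3 libraries as lines that end at 0. MRPL36 is lowest in KCl 45min, with a mean of 6.88, and has means of 31.4 in CTRLim and 12.7 in IM 18h. The means of MRPL33, whose reads cannot be told apart from those of BABAM2, stay between 21.0 and 32.0.

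Other genes of mitochondrial translation were read thinly. The 5 mitochondrial ribosomal proteins with other symbols (DAP3, GADD45GIP1, CHCHD1, PTCD3 and AURKAIP1) had at most 1 gene tested in a comparison and the 15 translation factors at most 2. Both edgeR and DESeq2 called 0 of them in all 6 comparisons, with 0 under an unadjusted p of 0.05 in edgeR. With a limit of 10 reads edgeR called 1 translation factor lower in KCl 45min against CTRL, and 1 translation factor and 1 of the 5 ribosomal proteins higher in JTE 1h against KCl 45min, beside 256 of 1885 and 640 of 3685 over all genes. Of 17 mitochondrial aminoacyl-tRNA synthetases 13 had a transcript in the table, and 1 was called in 1 comparison. MARS2, which charges the methionine tRNA, had 17.8, 14 and 9.97 RPM in IM 1h and 4.26, 3.91 and 3.70 in IM 18h. It was 1 of 3 tested there (-1.77 ± 0.478, edgeR adjusted p 0.00408, range over alternatives 0.00478 to 0.235), beside 315 of 1720 genes (18.3%) called in all.

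Of 27 genes for the assembly of the mitochondrial ribosome and the modification of its rRNA, at most 5 were tested in a comparison and 4 were called in any. In IM 18h against CTRLim 1 was called higher and 1 lower of 3 tested, beside 14.1% of all genes. In IM 18h against IM 1h 1 of 4 was called, beside 18.3%, and in JTE 1h against KCl 45min 2 of 4, beside 35.3%. C1QBP, a protein of the mitochondrial matrix, had 21.8, 11.1 and 26.4 RPM in CTRLim, 16.3, 8.72 and 14.9 in IM 1h and 2.13, 6.26 and 5.19 in IM 18h. All IM 18h libraries lay below the others. It was called lower against CTRLim (-1.98 ± 0.498, edgeR adjusted p 0.00422, range over alternatives 0.00121 to 0.0381), under every alternative in which it was tested, and against IM 1h (-1.50 ± 0.463, edgeR adjusted p 0.0142, range 0.0116 to 0.370). TFB1M, which dimethylates the small subunit's rRNA, had 8.70, 5.55 and 12.2 RPM in CTRLim and 27.7, 25.8 and 17.8 in IM 18h, and was called higher (1.41 ± 0.458, edgeR adjusted p 0.0287, range over alternatives 0.0143 to 0.226). In JTE 1h against KCl 45min the rRNA methyltransferase MRM2 had 10.9, 19.4 and 18.3 RPM against 4.87, 6.37 and 0.947 (2.33 ± 0.835, edgeR adjusted p 0.0195, range 6.26e-04 to 0.235). The helicase DHX30 had 6.53, 11.7 and 29.6 against 0, 0 and 5.68 (2.45 ± 0.800, edgeR adjusted p 0.00947, range 1.82e-04 to 0.286). Neither of these 2 genes was called under TMM scaling or by DESeq2.

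The 77 genes of the cytosolic ribosome, which makes all the members' proteins, were read more deeply. In IM 18h against CTRLim 16 of 42 tested were called, all lower, with a median of -0.80, beside 1 of 16 members and -0.13 and 14.1% of all genes tested. In IM 18h against IM 1h the figures were 29 of 44 and -1.01, beside 3 of 22 and -0.58 and 18.3% of all genes. In KCl 45min against CTRL 13 were lower and 1 was higher of 35 (median -1.18, all genes 25.1% called), and in JTE 1h against KCl 45min 33 were higher and 1 lower of 57 (1.95, all genes 35.3%). In JTE 1h against CTRL 1 of 55 was called, higher, with a median of 0.56, where over all genes 0.103% were called, and in IM 1h against CTRLim edgeR and DESeq2 called 0 of 43, with 6 under an unadjusted p of 0.05 in edgeR and a median of 0.13, or -0.05 with TMM scaling, where over all genes 1.52% were called. TMM scaling kept the sign of the other medians. The members' reads per cytosolic read were 0.229, 0.282 and 0.265 in CTRLim, 0.279, 0.316 and 0.319 in IM 1h and 0.446, 0.419 and 0.430 in IM 18h. All IM 18h libraries lay above those of the other 2 groups, a ratio that does not depend on the scaling and shows unequal change only. In CTRL, KCl 45min and JTE 1h the ratio was 0.340 ± 0.0139, 0.318 ± 0.0413 and 0.301 ± 0.0377, with overlapping libraries. The difference in ratio was not tested, since the members were chosen with results known.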

How the data were processed

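The authors deposited whole-number counts of readthrough reads per transcript, made with cutadapt 3.4, minimap2 2.22 (GRCh38.p14) and UMICollapse 1.0.0 and not normalised. The study's totals of reads left after its filters served as library sizes. Symbols, positions and antisense neighbours came from GENCODE 44, and 347 transcripts were not matched. Each comparison was fitted on its 6 libraries with edgeR 4.0.16 (glmQLFit, glmQLFTest) in R 4.3.3 for genes with at least 30 reads, with Benjamini-Hochberg adjustment over all of them. DESeq2 1.42.0 was an alternative, and both were tested on simulated data, where DESeq2 called fewer of the changed genes than edgeR in every comparison. Of the unchanged genes edgeR called 0 to 6 in a comparison and DESeq2 0 to 1. In each simulation 200 genes were changed by 2 in log2, up or down, and all genes had the same fixed dispersion. No library was made to stand apart, so these counts need not hold for the libraries analysed here. Tables and plots used Python 3.11.15, pandas 2.3.3, scipy 1.17.1 and matplotlib 3.10.9. Other alternatives were TMM scaling, scaling to total readthrough or mapped reads, limits of 10 and 1 reads, all 9 libraries of a set, a replicate block, a read length covariate, other untreated libraries, and leaving out each library. Residuals of same-numbered JTE 1h and KCl 45min libraries correlated across genes (Pearson's r 0.284, 0.204 and 0.206), other pairs of these groups at 0.0751 or less. The labels do not state that the replicate numbers pair samples, and a replicate block was tried as an alternative. Against CTRL same-numbered pairs reached 0.248 (JTE 1h) and 0.297 (KCl 45min), and differently numbered ones 0.224 and 0.163. Genes named are members called in any comparison, the 5 with the smallest p per direction and comparison among those without overlap, the 12 with the most reads, and called genes of the lists of other mitochondrial ribosomal proteins, translation factors, assembly and rRNA modification genes and synthetases. Cytosolic ribosomal protein genes are given by counts. The members and lists were chosen with earlier results of these data known.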

Additional observations from a re-analysis of the deposited data

Results flagged for a closer look

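For 3 of the 22 members tested, beside 315 of 1720 genes (18.3%) in all, the readthrough after 1 h and after 18 h of imatinib differed in the direct edgeR test of the time points. MRPL36 differed by a log2 fold change of -1.14 (IM 18h over IM 1h, edgeR adjusted p 0.00822), with means of 12.7 and 28.5 RPM. MRPS7 differed by -0.73 (edgeR adjusted p 0.0335), with means of 24.7 and 41.3 RPM, and MRPS22 by -1.54 (edgeR adjusted p 0.0335), with 1.48 to 6.38 RPM in IM 18h and 7.43 to 10.5 in IM 1h. In all 3 genes every IM 18h library lay below every IM 1h library. The cause was not tested, and none of the 3 was called under TMM scaling, where the median of all genes tested moved from -0.30 to -0.01.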

How the results depend on the processing

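No member reversed its direction past the threshold under any alternative. In JTE 1h against CTRL the count of members called was 0 as reported (all genes 1 of 969). It was 1 (MRPL46) with all 6 untreated libraries as control (23 of 1381) or without replicate 1 of both groups (22 of 744). When single libraries were left out it was 0 to 1, the 1 being without JTE 1h replicate 1 (69 of 840). The summed log2 ratio, 0.39 as reported, was 0.00 when scaled to total readthrough reads and 0.2 to 0.57 without single libraries. In KCl 45min against CTRL, 1 member was called as reported (all genes 95 of 378), 6 of 30 tested with a limit of 10 reads (256 of 1885) and 3 of 72 with a limit of 1 read (112 of 9247). With all 6 untreated libraries 5 of 13 were called (274 of 791). DESeq2 called 0 with its own size factors (47 of 378) or library reads (62 of 378). The count was also 0 in the fit of the 9 libraries of the set (79 of 378) and without replicate 1 of both groups (38 of 229). Leaving out single libraries gave 0 to 1, beside 41 of 235 to 75 of 312 genes. The summed log2 ratio was -0.43 scaled to total readthrough reads and -1.18 without replicate 1 of both groups, and -1.11 to -0.77 without single libraries. In JTE 1h against KCl 45min, 8 members were called as reported (all genes 353 of 999), 2 under TMM scaling (164 of 999) and 2 scaled to total readthrough reads (184 of 999). With a limit of 10 reads 16 of 49 tested were called (640 of 3685), and DESeq2 with its own size factors called 0 (74 of 999). Without replicate 1 of both groups 10 of 14 were called (451 of 808). Without single libraries the count was 1 (83 of 435, without JTE 1h replicate 3) to 9 (476 of 873, without JTE 1h replicate 1). The summed ratio was 0.43 scaled to total readthrough reads, 1.68 without replicate 1 of both groups and 1.12 to 1.5 without single libraries. With the replicate block the same 8 members were called there (all genes 403 of 999), and 2 of the 3 in IM 18h against IM 1h (274 of 1720). In IM 1h against CTRLim, 0 members were called as reported (all genes 15 of 988) and 1 (MRPL50) with CTRL as control (202 of 881). The summed ratio, 0.30 as reported, was 0.17 scaled to total readthrough reads, 0.20 with all 6 untreated libraries, 0.11 with CTRL, -0.05 as the median over all 75 members of their log2 ratios with 0.5 reads added (fitted median 0.33 over 71 members with a limit of 1 read) and 0.25 to 0.36 without single libraries. In IM 18h against CTRLim, 1 member was called as reported (all genes 196 of 1386) and 0 with all 6 untreated libraries (148 of 1667). With CTRL 2 were called, MRPL50 higher and MRPS18A lower (267 of 1262). Without single libraries the count was 0 (120 of 1244, without CTRLim replicate 3) to 1. The summed ratio, -0.21 as reported, was -0.40 with CTRL, -0.67 as that median (fitted -0.09 over 72) and -0.28 to -0.11 without single libraries. In IM 18h against IM 1h, 3 members were called as reported (all genes 315 of 1720). With TMM scaling 0 were called (203 of 1720), as when scaled to total readthrough reads (216 of 1720). DESeq2 also called 0, with its own size factors (64 of 1720) and on library reads (108 of 1720). Scaled to mapped reads 1 was called (257 of 1720). A limit of 10 reads gave 2 of 46 (307 of 4445) and a limit of 1 read 2 of 73 (216 of 10060). In both these were MRPL36 and, named after its values were seen, MRPS12, without MRPS7 and MRPS22. Without single libraries the count was 0 (215 of 1500, without IM 1h replicate 1) to 2. The summed ratio, -0.52 as reported, was -0.27 scaled to total readthrough reads and -0.58 to -0.41 without single libraries. Leaving out both replicates 1 was chosen after seeing the data, and the read length covariate was not run for the comparisons with CTRLim. The cause of these differences was not tested, beyond that a lower limit tests more genes and leaving out libraries leaves fewer reads. Depth limited the comparisons: 5 to 22 of the 75 members reached 30 reads, so a difference in the others was not detectable by this test. Gene body reads were not used, so transcription and cleavage cannot be told apart, and with 3 libraries a group single libraries decided several calls.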
